A study of Mus musculus with 4 samples.

Results

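The nuclear genes of oxidative phosphorylation were described across cells of dissected mouse hearts at E10.5 (embryonic day), grouped by marker genes. They were taken by symbol: the Nduf genes of complex I, the Sdh genes of complex II, the Uqcr genes of complex III, the Cox4 to Cox8 genes of complex IV and the Atp5 genes of complex V, without symbols ending in -ps and with at least 100 unique molecular identifiers (UMIs, 1 per captured mRNA molecule) over all barcodes. The rule gave 83 of the 32285 genes in the count matrices: 37 for complex I, 4 for complex II, 8 for complex III, 17 for complex IV and 17 for complex V. Of the 85 symbols that matched, Cox8c was left out at 3 UMIs and Ndufb1-ps by its ending. Hearts of C57BL/6J embryos were profiled by droplet 3′ single-cell RNA sequencing in 4 libraries, 2 from wild-type embryos (Wt1 and Wt2) and 2 from embryos homozygous for the I383V knock-in of Cyp51 (Ho1 and Ho2). Cyp51 encodes lanosterol 14-alpha-demethylase of cholesterol synthesis, and the change was made by CRISPR/Cas9, which the labels give for all 4 libraries. No source used here says how many embryos went into a library, so p-values measure only the spread between these libraries.

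Oxidative phosphorylation makes most of the ATP of a working heart. Complexes I and II feed electrons from NADH and succinate into the inner mitochondrial membrane, complex III passes them to cytochrome c, complex IV reduces oxygen, and complex V, the ATP synthase, uses the proton gradient that the chain builds. Most subunits are encoded in the nucleus and imported, and 13 are encoded by mitochondrial DNA. Several subunits of complex IV come as a widely used form and a form of heart and skeletal muscle, such as Cox6a1 and Cox6a2.

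After quality limits and removal of doublets, 8908 (Wt1), 7154 (Wt2), 6980 (Ho1) and 6126 (Ho2) cells remained, with median depths of 10561, 14215.5, 15658 and 15831.5 UMIs per cell. The 83 genes were summed per library in 7 gates, each the cells in which a marker gene passed a limit. The ventricular gate was Tnnt2-positive cells with Myl2, a ventricular myosin light chain, the atrial gate Tnnt2-positive cells with Stard10, and the sinus venosus gate Tnnt2-positive cells with Shox2, a transcription factor of the pacemaker region. Tnnt2, cardiac troponin T, had to be under its limit in the other 4 gates, which held Cdh5 (endothelial cadherin), Hapln1 (a matrix protein of cushion cells), Crabp1 (a retinoic acid binding protein of mesenchyme) and Upk3b (a mesothelial gene). The ventricular gate held 640, 1177, 1672 and 881 cells in Wt1, Wt2, Ho1 and Ho2, the atrial gate 248, 411, 453 and 314, and the sinus venosus gate 138, 142, 216 and 336. The Crabp1 gate was uneven, with 1730, 238, 27 and 180 cells. Its markers were listed for pharyngeal mesenchyme, and among them Prrx1, Foxf1 and Dlx2 were highest in this gate. In the same order of libraries 4360, 2712, 1851 and 2705 cells met no gate. Libraries shared 9 to 28 cell barcodes, at most 0.401% of the smaller library.

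Most markers that had not set the gates followed their labels. In ventricular cells 5 of 5 such markers were highest of all gates, among them Myh7 at 3217 UMIs per 1000000 UMIs and Irx4 at 53.3. In Cdh5 and Upk3b cells 6 of 6 were highest, as were 5 of 6 in Hapln1 and Crabp1 cells. Col1a1, listed for Hapln1 cells, stood at 19.2 there and at 119 in Crabp1 cells. In atrial and sinus venosus cells 3 of 7 and 3 of 5 were highest and the rest second. The atrial markers Nr2f1, Nr2f2, Tbx5 and Sln were highest in sinus venosus cells. Upk3b cells also carried Myl7, an atrial and early ventricular myosin light chain, at 2981 ± 628 UMIs per 1000000 (SD, n = 4), against 198 ± 108 in Cdh5 cells.

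Single libraries stood apart in sex and in mitochondrial UMIs. Ho1 alone held Xist, with 28877 UMIs and 0 UMIs of 4 Y-linked genes, while the other 3 libraries had 2 to 5 Xist UMIs and 8808 to 9910 Y-linked UMIs. Ho2 had the highest share of mitochondrially encoded UMIs in every gate, 2.52% in ventricular cells against 1.59% in Wt1, 1.57% in Wt2 and 1.70% in Ho1. Sex and library cannot be told apart within Ho. Ho2 had the sex pattern of both Wt libraries, and Ho1 did not.

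The nuclear genes took 9.01% ± 0.536 of UMIs in ventricular cells (SD, n = 4) and near 4% in the cells that were not muscle. Ventricular cells held 9.08%, 8.70%, 9.74% and 8.53% (Wt1, Wt2, Ho1, Ho2). Atrial cells followed with 8.37%, 8.31%, 8.93% and 8.08%. Sinus venosus cells came next with 8.06%, 7.22%, 7.56% and 7.37%.

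The remaining gates fell into a narrow band near 4%. Cdh5 cells held 4.31% ± 0.232 (SD, n = 4), Upk3b cells 4.10% ± 0.216, Crabp1 cells 3.98% ± 0.0383 and Hapln1 cells 3.96% ± 0.124. The lowest muscle value, 7.22%, lay well above the highest value elsewhere, 4.62% in Cdh5 cells of Ho1. Within every library the order was ventricular, atrial, sinus venosus and then Cdh5 cells, 4 of 4 libraries at each step. Each of these steps had p = 0.13 by an exact paired permutation test (two-sided), the smallest p that 4 libraries allow, so this test cannot reach 0.05. Cdh5 cells were likewise above Upk3b cells in 4 of 4 libraries, by 0.204 ± 0.066 percentage points (exact paired permutation p = 0.13). Upk3b and Crabp1 cells, and Crabp1 and Hapln1 cells, did not differ beyond their spread, with 2 of 4 libraries in each direction (exact p = 0.500 and 1.00).

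**Figure D1:**
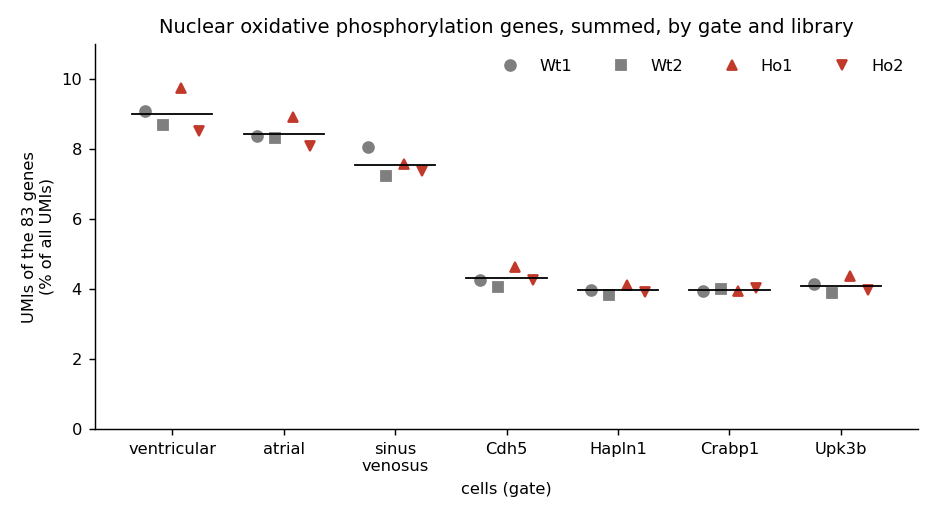
Share of all UMIs held by the 83 nuclear oxidative phosphorylation genes (y axis, %) in each of 7 gates (x axis), with 1 point per library and a line at the mean of the 4 libraries. The muscle gates sit between 7.22% and 9.74%, above every other gate, and Wt and Ho points are interleaved.

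On the scale of summed levels, ventricular cells exceeded atrial cells by a log2 ratio of 0.10 ± 0.03 (SD over 4 libraries, 1.07-fold), sinus venosus cells by 0.25 ± 0.08 (1.19-fold) and Cdh5 cells by 1.07 ± 0.04 (2.09-fold). The ratio was 1.14 ± 0.03 to Upk3b cells, 1.18 ± 0.10 to Crabp1 cells and 1.18 ± 0.05 to Hapln1 cells.

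Every complex took part, to unequal extents. Against Cdh5 cells the summed level of complex II was higher in ventricular cells by a log2 ratio of 1.30 ± 0.06, complex IV by 1.24 ± 0.05, complex III by 1.19 ± 0.04, complex V by 1.00 ± 0.04 and complex I by 0.94 ± 0.05. Complex IV therefore made up 26.9% ± 0.754 of the summed UMIs of the 83 genes in ventricular cells and 23.9% ± 0.684 in Cdh5 cells, while complex I made up 29.0% ± 0.421 and 31.7% ± 0.197. Complex V was the largest part in ventricular cells, 31.9% ± 0.497, and complex II the smallest, 1.62% ± 0.146.

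Gene by gene, the difference was tested with edgeR's quasi-likelihood test on the summed counts of all 28 combinations of gate and library, with the library as a block, over 13226 genes and with Benjamini-Hochberg adjustment. Of the 83 genes 82 passed the filter on low counts; Cox7b2, with 238 UMIs, did not. At an adjusted p under 0.05, 81 of 82 were higher in ventricular than in Cdh5 cells, where 36% of all genes tested were. The counts were 82 of 82 against Hapln1 cells (35.6% of all genes), 81 of 82 against Upk3b cells (32.2%) and 80 of 82 against Crabp1 cells (34.2%). The median log2 fold change of the members was 1.33, 1.47, 1.39 and 1.50 in these comparisons, and that of all genes 0.0029, -0.014, 0.058 and 0.031.

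These fold changes rest on scaling by the trimmed mean of M-values (TMM), which places the median gene near 0. Scaling by plain totals lowers the fold changes, by 0.26 on the log2 scale against Cdh5 cells, 0.31 against sinus venosus cells, 0.35 against Hapln1 cells, 0.42 against Crabp1 cells and 0.27 against Upk3b cells. With plain totals the member medians were 1.07, 1.12, 1.12 and 1.09 against Cdh5, Hapln1, Upk3b and Crabp1 cells, beside all-gene medians of -0.25, -0.36, -0.21 and -0.35. Over all genes, 4758 were higher and 4642 lower against Cdh5 cells with TMM, and 3416 and 6367 with plain totals. The splits went from 4706 and 4816 to 2996 and 7299 against Hapln1 cells, from 4526 and 4051 to 2761 and 6556 against Crabp1 cells, and from 4260 and 3782 to 2891 and 5521 against Upk3b cells. The members called higher with plain totals were 81, 81, 79 and 80 in the same order of gates. A 3′ UMI count has no length term, so levels below are molecules per 1000000 and were not divided by length.

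The middle of the distribution was tight. Against Cdh5 cells the middle 50% of members lay between log2 fold changes of 1.07 and 1.57, and 60 of 82 lay between 1 and 2. The 81 genes called higher were higher in 4 of 4 libraries, by their share of all UMIs. The genes beyond 2 were Cox6a2, Cox8b, Cox7a1, Cox4i2 and Ndufs1.

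**Figure D2:**
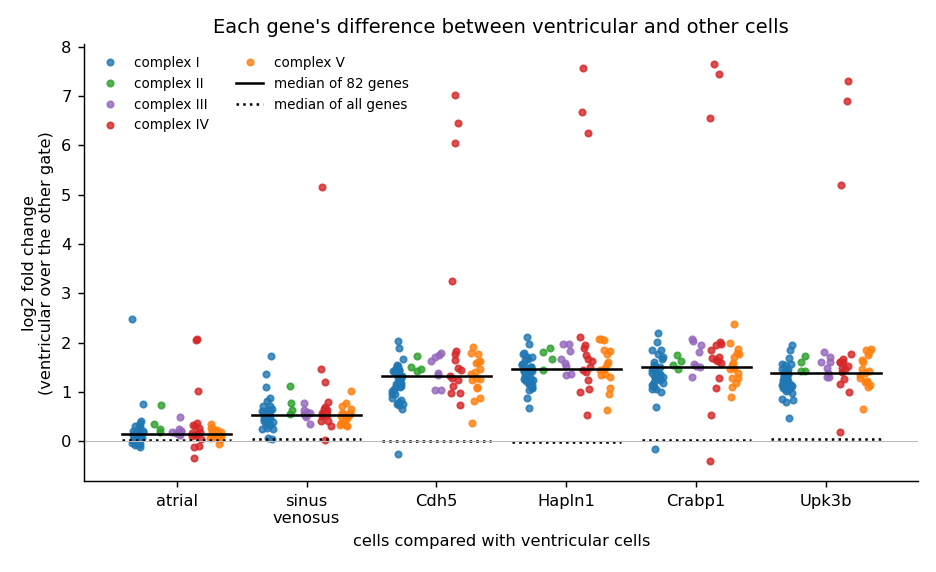
Log2 fold change of each of 82 nuclear oxidative phosphorylation genes between ventricular cells and 6 other gates (TMM scale, above 0 is higher in ventricular cells), coloured by complex, with the median of the 82 genes (solid) and of all 13226 genes tested (dotted). The medians run from 0.15 against atrial cells to 1.50 against Crabp1 cells, and the 3 points far above the rest in the 4 gates at the right are Cox6a2, Cox8b and Cox7a1.

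In complex I, 36 of 37 genes were higher in ventricular than in Cdh5 cells, with a median log2 fold change of 1.18. Ndufa4 (chr6:11900292-11907497, minus strand, mm10), which is now assigned to complex IV by biochemistry but kept here by its symbol, was the most abundant Nduf gene. It had 3128, 3034, 3947 and 2992 UMIs per 1000000 in ventricular cells of Wt1, Wt2, Ho1 and Ho2, against 1764, 1624, 2072 and 1850 in Cdh5 cells, with no overlap. Its log2 fold change was 1.09 ± 0.06 (SE, edgeR adjusted p = 7.37e-15).

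Ndufs1, which encodes the largest subunit of complex I and carries iron-sulfur clusters, had the steepest change of the complex. It had 136, 135, 130 and 137 UMIs per 1000000 in ventricular cells and 35.6, 36.6, 41.4 and 42.7 in Cdh5 cells, a log2 fold change of 2.04 ± 0.07 (edgeR adjusted p = 3.33e-19). Ndufa7, an accessory subunit, had the smallest change of those called in the complex, at 719 ± 80.1 against 543 ± 49.3 UMIs per 1000000 (0.66 ± 0.06, edgeR adjusted p = 3.63e-10). The exception was Ndufa4l2, a paralog of Ndufa4 known as a target of hypoxia signalling, at 4.58 ± 0.732 UMIs per 1000000 in ventricular and 6.43 ± 2.06 in Cdh5 cells, which did not pass (-0.26 ± 0.28, edgeR adjusted p = 0.400). Over atrial cells its log2 fold change was 2.48, the largest of any member tested, and over sinus venosus cells it was 1.74. Ndufa4l2 was scarce, with 1934 UMIs over all barcodes.

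In complex II all 4 genes were higher in ventricular than in Cdh5 cells. Sdhb, the iron-sulfur subunit, had 766, 832, 760 and 709 UMIs per 1000000 in ventricular and 313, 329, 330 and 309 in Cdh5 cells, so the groups were far apart (1.51 ± 0.06, edgeR adjusted p = 6.14e-18). Sdha, the flavoprotein that oxidises succinate, had 148, 162, 147 and 173 against 64.8, 71.2, 66.2 and 70.8 (1.46 ± 0.07, edgeR adjusted p = 4.58e-16). Complex II transcripts were scarce in every gate beside those of the other complexes.

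In complex III all 8 genes were higher, with a median of 1.50 against Cdh5 cells. Uqcrb, a subunit near the ubiquinone site, stood at 1875 ± 186 UMIs per 1000000 in ventricular and 1082 ± 96.4 in Cdh5 cells. Uqcrq stood at 1542 ± 104 and 598 ± 64.1. Uqcrc1, a core protein, was less abundant, at 390 ± 44.3 against 225 ± 14.9, with the same log2 fold change as Uqcrb (1.05 ± 0.06 for each).

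In complex V all 17 genes were higher against Cdh5 cells, and the 3 genes of the c subunit, which forms the rotor ring, did not move alike. Atp5g1 (chr11:96068852-96075670) had 2918, 3139, 3070 and 2844 UMIs per 1000000 in ventricular and 1029, 976, 1101 and 1010 in Cdh5 cells, a log2 fold change of 1.80 ± 0.08 (edgeR adjusted p = 1.17e-17). Atp5g3 stood at 2012 ± 122 in ventricular and 638 ± 44.4 in Cdh5 cells (1.91 ± 0.06, edgeR adjusted p = 4.11e-20). Atp5g2 (chr15:102662864-102672352) stayed nearly level, 2156, 2158, 2221 and 2004 against 1916, 2025, 2071 and 1921, and its change of 0.36 ± 0.06 (edgeR adjusted p = 6.14e-06) was the smallest of any called member in that comparison.

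The make-up of c subunit mRNA differed accordingly. Atp5g2 held 29.9% ± 0.367 of the UMIs of the 3 genes in ventricular cells, 27.5% ± 0.783 in atrial cells and 33.5% ± 1.06 in sinus venosus cells. It held 54.3% ± 1.16 in Cdh5 cells, 53.3% ± 0.661 in Hapln1 cells, 51.5% ± 1.31 in Crabp1 cells and 48.9% ± 1.12 in Upk3b cells, so no library of a muscle gate reached any library of the others. Atp5g2 is 1 of 5 members with over 50% of the 50-base words in the last 300 bases of its transcripts shared with another annotated gene, the others being Ndufs3, Cox7c, Atp5h and Atp5l, and their levels are uncertain to that extent.

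Complex IV held the muscle forms. Cox6a2 (chr7:128205435-128206387, minus strand) had 1098, 819, 1248 and 956 UMIs per 1000000 in ventricular cells, 1312, 1374, 1518 and 1227 in atrial cells and 485, 508, 471 and 365 in sinus venosus cells. In Cdh5 cells it had 5.44, 6.91, 18.3 and 7.35. Ventricular and sinus venosus cells differed by 1.47 ± 0.18 (edgeR adjusted p = 1.27e-07), while ventricular and atrial cells did not pass (-0.35 ± 0.17, edgeR adjusted p = 0.144), although atrial cells were higher in 4 of 4 libraries. Its widely used partner Cox6a1 was more even, at 315 ± 37.3, 305 ± 38.6, 295 ± 58.1 and 191 ± 19.2 in ventricular, atrial, sinus venosus and Cdh5 cells.

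Cox6a2 thus held most of the Cox6a UMIs in muscle, 76.2% ± 4.12 in ventricular, 81.6% ± 3.15 in atrial and 60.8% ± 7.12 in sinus venosus cells. Cox7a1 (chr7:30184144-30186078), the muscle form of another subunit, was a small part of its pair, 8.42% ± 0.848, 11.2% ± 0.334 and 6.51% ± 0.320 of Cox7a1 plus Cox7a2. For both genes the share was highest in atrial and lowest in sinus venosus cells among the muscle gates, in 4 of 4 libraries for each pair of gates with ventricular cells (exact paired permutation p = 0.13, the smallest that 4 libraries allow).

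Cox8b, the muscle form of Cox8, followed another order. It had 9.30, 7.35, 12.4 and 9.99 UMIs per 1000000 in ventricular cells and 1.99, 1.43, 2.13 and 4.22 in atrial cells, with no overlap (2.08 ± 0.23, edgeR adjusted p = 7.99e-08). Sinus venosus cells had 4 Cox8b UMIs in all 4 libraries together, against 785 in ventricular and 73 in atrial cells. Even in ventricular cells it was 0.345% ± 0.0650 of Cox8a plus Cox8b, so Cox8a carried nearly the whole pair in every gate.

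**Figure D3:**
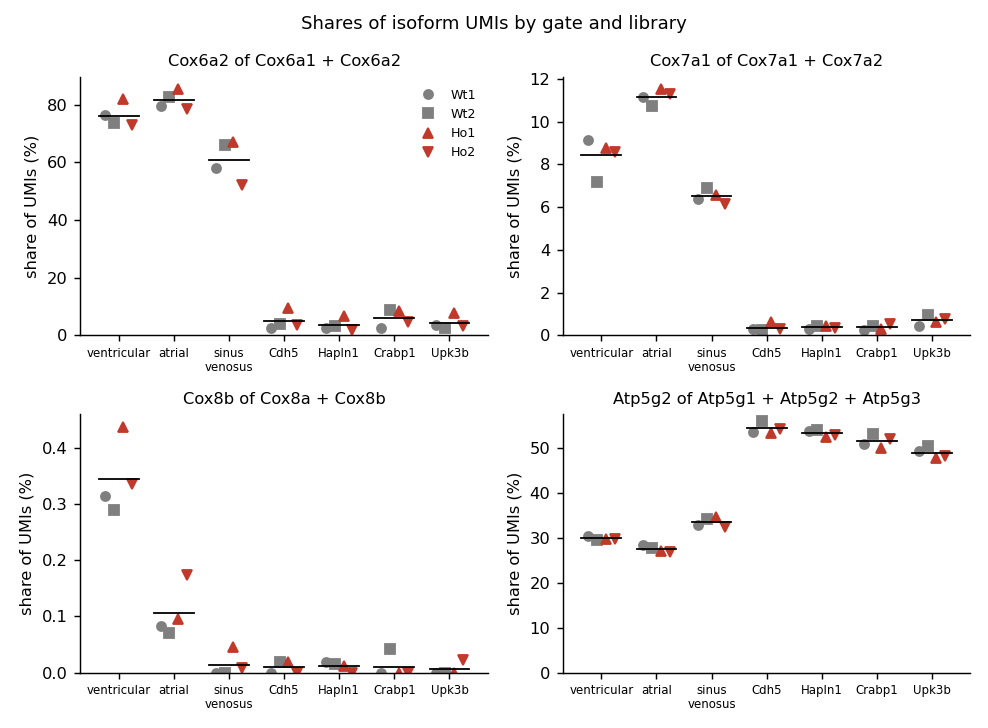
Share of UMIs (y axis, %) held by Cox6a2, Cox7a1, Cox8b and Atp5g2 within their isoform sets in 7 gates (x axis), with 1 point per library and a line at the mean. Cox6a2 and Cox7a1 are highest in atrial cells, Cox8b in ventricular cells, and Atp5g2 is near 30% in ventricular cells and over 47% in every library of the 4 gates that are not muscle.

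Low levels of the muscle forms were also counted in cells gated against Tnnt2. In Cdh5 cells Cox6a2 stood at 0.893% and Cox7a1 at 1.66% of the ventricular level, beside 1.32% for Tnnt2, 1.14% for Myl7, 0.706% for Actc1 and 0.578% for Myl2, all contractile genes. In Upk3b cells Cox6a2 stood at 0.774% and Cox7a1 at 3.25%, beside 4.4% for Tnnt2 and 17.1% for Myl7. The part of muscle RNA in these levels was not tested.

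Other paired forms of complex IV had orders of their own. Cox4i2, a form of Cox4 known from lung and from low oxygen, had 25.03, 18.5, 20.2 and 21.7 UMIs per 1000000 in ventricular and 18.2 ± 1.80 in sinus venosus cells. It had 7.29, 4.84, 4.97 and 4.64 in atrial cells (ventricular over atrial 2.05 ± 0.15, edgeR adjusted p = 1.90e-11). As a share of Cox4i1 plus Cox4i2 it was 1.08% ± 0.185 in ventricular, 0.332% ± 0.0858 in atrial and 2.42% ± 0.203 in Crabp1 cells. Cox6b2, known mainly from testis, was the only member called lower in ventricular cells in any of the 6 tests between gates on the TMM scale, against Crabp1 cells (-0.41 ± 0.17, edgeR adjusted p = 0.0428), where 30.6% of all genes were lower. It was scarce, at 8.43 ± 1.89 UMIs per 1000000 in ventricular cells.

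Between muscle gates the differences were smaller and uneven. Against sinus venosus cells, 79 of 82 genes were higher in ventricular cells, where 27.7% of all genes were, with a member median of 0.54 and an all-gene median of 0.038. With plain totals the member median was 0.23 and that of all genes -0.26, and 59 members were higher and 2 lower (all genes 1830 and 5467, against 3660 and 2966 with TMM). The 2 were Ndufa1 and Ndufa7, which did not pass with TMM (0.06 ± 0.06 for each) and were lower with plain totals (-0.24 and -0.25, edgeR adjusted p = 0.00303 and 0.000452).

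Ndufs6, an accessory subunit of the electron-entry arm of complex I, led the differences outside the isoform families named above. It had 694, 639, 716 and 647 UMIs per 1000000 in ventricular, 389, 411, 446 and 403 in atrial, and 351, 280, 321 and 334 in sinus venosus cells. The ventricular values did not overlap with either of the others (0.76 ± 0.06 over atrial, edgeR adjusted p = 4.77e-10, and 1.37 ± 0.07 over sinus venosus cells, edgeR adjusted p = 3.63e-15). Sdha showed the same order, with 91.7, 102, 90.9 and 107 in atrial and 78.0, 101, 86.4 and 93.2 in sinus venosus cells, changes of 0.75 ± 0.07 and 1.12 ± 0.08. Ndufv3 and Atp5g1 also passed 1 against sinus venosus cells (1.11 ± 0.08 and 1.02 ± 0.08), and Atp5g1 did not differ between ventricular and atrial cells (0.07 ± 0.08, edgeR adjusted p = 0.525).

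Against atrial cells 39 of 82 genes were higher in ventricular cells and 0 lower, where 14.3% of all genes were higher. The member median was 0.15 and the all-gene median 0.024. By complex the counts were 12 of 37, 4 of 4, 6 of 8, 9 of 16 and 8 of 17 for I to V. This count depended on the libraries: without Wt2 it was 25, and with all columns thinned to the smallest library it was 10. Over all alternatives it ran from 10 to 51. For the counts of 25, 10 and 51 the share of all genes called is not given. With plain totals 35 were higher (all genes 1491 higher and 2039 lower, against 1888 and 1595 with TMM), and Cox7a2l (-0.16) and Ndufa11 (-0.18) were lower.

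Genes around the chain moved with it between ventricular and Cdh5 cells. All 7 tested genes for carriers and further subunits were higher, with a median log2 fold change of 1.399: cytochrome c (Cycs) stood at 2688 ± 69.5 against 819 ± 74.4 UMIs per 1000000 and cytochrome c1 (Cyc1) at 710 ± 63.1 against 193 ± 8.67. All 17 genes of pyruvate entry and the citric acid cycle were higher, with a median of 1.39. Of 44 tested assembly factors 35 were higher and 2 lower (median 0.59), and of 78 genes of the mitochondrial ribosome 63 were higher and 2 lower (median 0.43). The share of all genes higher was again 36%, and 4642 of 13226 were lower.

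The regulators of the pathway were mixed. Of 13 tested, 8 were higher in ventricular than in Cdh5 cells and 3 lower, where 4758 and 4642 of all 13226 genes were. Tfam was among the 8 on the TMM scale (0.17 ± 0.08, edgeR adjusted p = 0.0445). Its mean level was lower in ventricular cells, at 46.9 ± 2.22 against 49.4 ± 1.85 UMIs per 1000000. Ppargc1a, a coactivator of mitochondrial genes, stood at 25.6 ± 3.63 against 0.482 ± 0.496 UMIs per 1000000, its relative Ppargc1b at 19.6 ± 2.85 against 0.996 ± 0.373, and the nuclear receptor Esrrg at 15.3 ± 2.46 against 0.547 ± 0.196. Each was in the muscle gate above every Cdh5 library. Gabpb1, a subunit of the factor GABP, was lower, at 11.6 ± 0.743 against 35.0 ± 2.60 (-1.35 ± 0.09), while Gabpa, another subunit of GABP, was higher (0.58 ± 0.09). Also lower were Nrf1 (-0.36 ± 0.10) and Yy1 (-0.26 ± 0.07). Against atrial cells Ppargc1a did not pass (-0.14 ± 0.13, edgeR adjusted p = 0.51), while Ppargc1b and Esrrg (0.69 for each) and Hif1a (0.42 ± 0.06) were higher. Esrra (-0.36 ± 0.08) and Pprc1 (-0.40 ± 0.13) were lower there (edgeR adjusted p = 0.00113 and 0.0242).

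Promoters of the members were read for the letters these factors are known to bind. Whether these letters go with the changes between gates was not tested. RefSeq windows on GRCm38.p6, 250 bases before to 50 after a gene's start, were held for 67 of the 83 genes, and both strands were searched. The NRF1 letters GCGCANGCGC were in 17 of 67 members (25.4%), in 5.19% of all 27025 genes with a window and in 11.5% of those tested here. The GABP letters CCGGAAG were also in 17 members (25.4%, against 9.93% of all and 19.96% of tested genes), and the YY1 letters AAGATGGC in 9 (13.4%, against 3.19% and 5.22%). At least 1 of the 3 was in 37 members (55.2%, against 16.4% of all and 32.2% of tested genes). The motifs can overlap in a window, and a match is a description of the letters, not a site.

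Stretches before the start site are given for 5 of the 17 members with the NRF1 letters, so that these can be seen: Ndufs6, Sdha, Atp5g2 and Cox6a1, described above, and Sdhd of complex II. They run 5′ to 3′ on the gene's strand, with the NRF1 letters of either strand in capitals.
Ndufs6 (chr13:73328483-73328505, minus strand): ctgctgtGCGCCTGCGCcggcac
Sdha (chr13:74350279-74350302, minus strand): gcgtgttGCGCAGGCGCagaatct
Sdha (chr13:74350322-74350345, minus strand): ttacaggGCGCAGGCGCaccacca
Sdhd (chr9:50603912-50603935, minus strand): ctggggtGCGCACGCGCggtggca
Atp5g2 (chr15:102671073-102671096, minus strand): tccggccGCGCATGCGCagagcct
Cox6a1 (chr5:115349059-115349082, minus strand): ataaagtGCGCAGGCGCtggagtt
Cox6a1 (chr5:115349104-115349127, minus strand): gaacgggGCGCATGCGCgctctcg
None of the 3 motifs was in the windows of Cox7a1, Cox8b or Atp5g1. The same held for other members, among them Ndufa4, Uqcr10 and Cox5a, and no window was held for Cox6a2.

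Ho and Wt libraries were then compared within each gate, the comparison the study was built on. None of the members passed an adjusted p of 0.05 by edgeR in any of the 7 gates, with DESeq2 also at 0 in each. At an unadjusted p under 0.05 there were 4 of 82 members in ventricular, 1 of 81 in atrial, 0 of 80 in sinus venosus, 6 of 81 in Cdh5, 5 of 81 in Hapln1, 0 of 81 in Crabp1 and 2 of 80 in Upk3b cells. Over all genes 8.71%, 4.52%, 5.47%, 3.63%, 5.76%, 2.19% and 4.74% were under it in the same order of gates, against 4.88%, 1.23%, 0%, 7.41%, 6.17%, 0% and 2.5% of members. At the adjusted threshold the shares of all genes were 0% in ventricular, 0.181% in atrial, 0.00986% in sinus venosus, 0% in Cdh5, 0.0389% in Hapln1, 0% in Crabp1 and 0.0589% in Upk3b cells. A test for a genotype effect that differed between gates called 0 of 82 members (0% of all genes, 0 members and 429 of 13226 genes at an unadjusted p under 0.05).

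The summed level did not separate the genotypes either. In ventricular cells Wt held 8.89% ± 0.271 of UMIs and Ho 9.13% ± 0.853 (SD, n = 2 each), a log2 ratio of 0.04 (exact permutation p = 1.00). The log2 ratio was 0.03 in atrial, -0.03 in sinus venosus, 0.09 in Cdh5, 0.04 in Hapln1, 0.0098 in Crabp1 and 0.06 in Upk3b cells, with exact p from 0.667 to 1.00. With 2 libraries a group the smallest two-sided exact p is 0.33. Its sign turned without Ho1 in ventricular (-0.06), atrial (-0.05) and Upk3b cells (-0.013), without Wt1 in sinus venosus cells (0.05) and without Ho2 in Crabp1 cells (-0.0025).

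**Figure D4:**
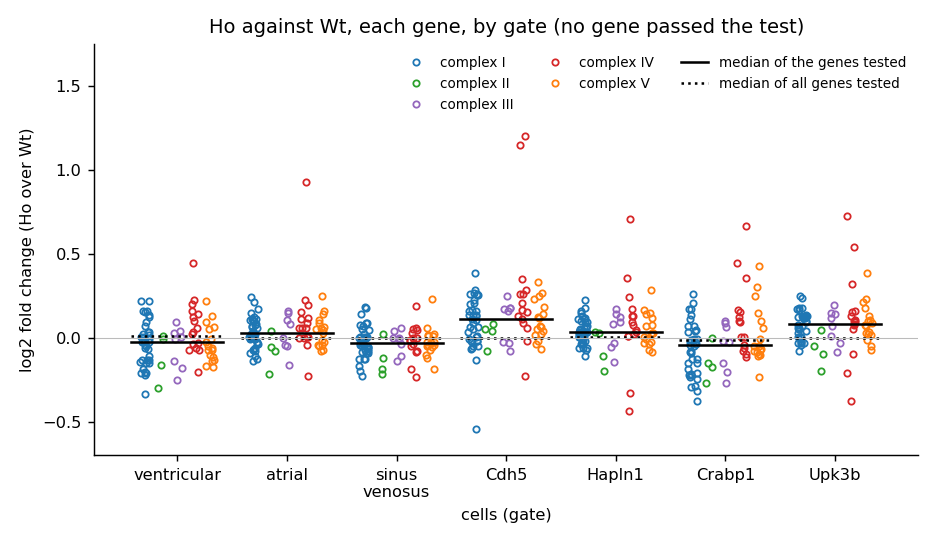
Log2 fold change of each tested nuclear oxidative phosphorylation gene between Ho and Wt libraries (TMM scale, y axis) in 7 gates (x axis), coloured by complex, with the median of these genes (solid) and of all genes tested (dotted). The medians lie between -0.04 in Crabp1 cells and 0.11 in Cdh5 cells, and no gene passed the test in any gate.

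In ventricular cells 69 of 82 tested members were higher in Ho1 than in Ho2, by a median log2 ratio of 0.18, where 37.2% of all genes tested were. Ho1 was the highest of the 4 libraries for 52 of the 82, where it was for 18.4% of all genes, and Ho2 the lowest for 40, where it was for 16.6%. Wt1 was above Wt2 for 49, where it was for 42.3% of all genes. Of the 82, 15 had both Ho libraries below both Wt libraries, where 14.7% of all genes did, and 5 had both above, where 24.8% did. In Cdh5 cells 12 of 81 were below (22% of all genes) and 24 above (11.4%).

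The members with the smallest p in ventricular cells were Ndufv1, Sdhd and Cox8b. Ndufv1, the NADH-binding subunit of complex I, had 307 and 306 UMIs per 1000000 in Wt1 and Wt2 and 252 and 248 in Ho1 and Ho2, with no overlap (-0.33 ± 0.09, edgeR adjusted p = 0.387). Sdhd, a membrane anchor of complex II, had 451 and 461 against 389 and 372 (-0.30 ± 0.10, edgeR adjusted p = 0.468). Cox8b had 9.30 and 7.35 against 12.4 and 9.99 (0.45 ± 0.18, edgeR adjusted p = 0.530). Without Ho1, Ndufv1 and Sdhd were called (-0.38 and -0.37, edgeR adjusted p = 0.0209 and 0.0368), and without Ho2 Ndufa3 was (0.48, edgeR adjusted p = 0.0269). These fits hold 1 Ho library, which is assumed to vary like the Wt pair, and they called 1.56% and 0.953% of all genes.

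Ndufv1 and Sdhd were also among the smallest p values in sinus venosus cells, again with Ho below Wt in both genes (-0.20 ± 0.11 and -0.22 ± 0.11, edgeR adjusted p = 0.939 and 0.911). Sdhd had both Ho libraries below both Wt libraries in every gate. The gates come from the same 4 libraries and are not independent of each other. Atp5mpl, a small subunit of the ATP synthase, was among the 3 smallest in atrial, Hapln1, Crabp1 and Upk3b cells and higher in Ho in each, by 0.25 ± 0.14, 0.29 ± 0.09, 0.43 ± 0.26 and 0.39 ± 0.12 (edgeR adjusted p = 0.998, 0.656, 1.00 and 0.798). It was called in Upk3b cells with the replicate number as a block (0.39 ± 0.10, edgeR adjusted p = 0.0207). With no filter on low counts it was called in Hapln1 cells (0.29 ± 0.08, edgeR adjusted p = 0.0384). Atp5mpl had both Ho libraries above both Wt libraries in every gate. How many of all genes kept 1 order in every gate, as Sdhd and Atp5mpl did, was not counted. Without Ho2, Atp5md (0.41) and Ndufa3 (0.40) were called in atrial cells and Cox6a2 (1.24) in Hapln1 cells, in fits with 1 Ho library that called 0.565% and 0.794% of all genes.

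Cox6a2 in Cdh5 cells had the largest fold change of the genes named by their p values, 1.15 ± 0.41 (edgeR adjusted p = 0.999). It rested on Ho1, at 18.3 UMIs per 1000000 against 5.44, 6.91 and 7.35. Ho1 was also highest there for Myl7, at 358 against 121, 161 and 153, for Myl2, at 64.9 against 24.6, 29.2 and 19.0, and for Tnnt2, at 57.1 against 39.7, 48.5 and 30.5. The part of muscle RNA in this difference was not tested.

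The X-linked members are Ndufa1, Ndufb11 and Cox7b. Cox7b had 1204 and 1098 UMIs per 1000000 in Wt1 and Wt2 and 1383 and 1338 in Ho1 and Ho2 in ventricular cells, so that both Ho libraries were above. Ho1 held Xist and Ho2 Y-linked UMIs, and the part of sex in this difference was not tested. In Cdh5 cells it had 455 and 400 against 514 and 547 (0.35 ± 0.11, edgeR adjusted p = 0.999). For Cox7b both Ho libraries were also above in atrial, Hapln1 and Upk3b cells, and the genotypes overlapped in sinus venosus and Crabp1 cells. Ndufb11, at 721, 769, 826 and 726 in ventricular cells, and Ndufa1, at 566, 444, 627 and 526, overlapped between genotypes there. In Cdh5 cells Ndufa1 had 270.6 and 226.9 in Wt against 291.2 and 271.4 in Ho, and both Ho libraries were also above in Crabp1 cells. For Ndufb11 both Ho libraries were above in Hapln1 and Upk3b cells and below in sinus venosus cells.

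The mitochondrially encoded subunits were also higher in ventricular cells than in the cells that were not muscle, while atrial and sinus venosus cells stood in the other order. They held 1.85% ± 0.452 of UMIs in ventricular, 1.77% ± 0.265 in sinus venosus and 1.46% ± 0.380 in atrial cells, so that sinus venosus cells, below atrial cells for the nuclear genes, stood above them here. All 13 were higher in ventricular than in Cdh5, Hapln1, Crabp1 and Upk3b cells (median log2 fold changes 0.79, 1.08, 1.26 and 1.13). Of all genes 36%, 35.6%, 34.2% and 32.2% were higher there. Against atrial cells 12 were higher with a median of 0.41, where 14.3% of all genes were. Against sinus venosus cells 10 were higher and 1, mt-Nd6, was lower on the TMM scale, with a median of 0.37, where 27.7% of all genes were higher. The shift between TMM and plain totals was 0.31 there. Less this shift, mt-Nd6 (-0.71), mt-Cytb (-0.25), mt-Atp8 (-0.20) and mt-Nd4l (-0.0067) were below 0. The rest ran from 0.05 for mt-Nd4 to 0.30 for mt-Nd1, with mt-Atp6 (0.06) in the middle of the 13. By share of UMIs, ventricular cells were below sinus venosus cells in Wt1 (1.59% and 1.65%) and Wt2 (1.57% and 1.68%) and above them in Ho1 (1.70% and 1.59%) and Ho2 (2.52% and 2.17%).

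Between genotypes 12 of 13 had a fold change above 0 in ventricular cells on the TMM scale, with a median of 0.42. Of the nuclear members 35 of 82 did, with a median of -0.02, and of all genes 6684 of 12965. With plain totals 46 of 82 nuclear members did, with a median of 0.014. None of the 13 passed the test in ventricular cells. In atrial cells mt-Nd3 was called (0.75 ± 0.15, edgeR adjusted p = 0.0163). It had 120 and 87.9 UMIs per 1000000 in Wt1 and Wt2 and 128 and 218 in Ho1 and Ho2. Ho2 held 2.52% in ventricular cells and Ho1 1.70%, against 1.59% and 1.57% in Wt, while for the nuclear genes Ho2 was the lowest of the 4 libraries and Ho1 the highest.

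**Figure D5:**
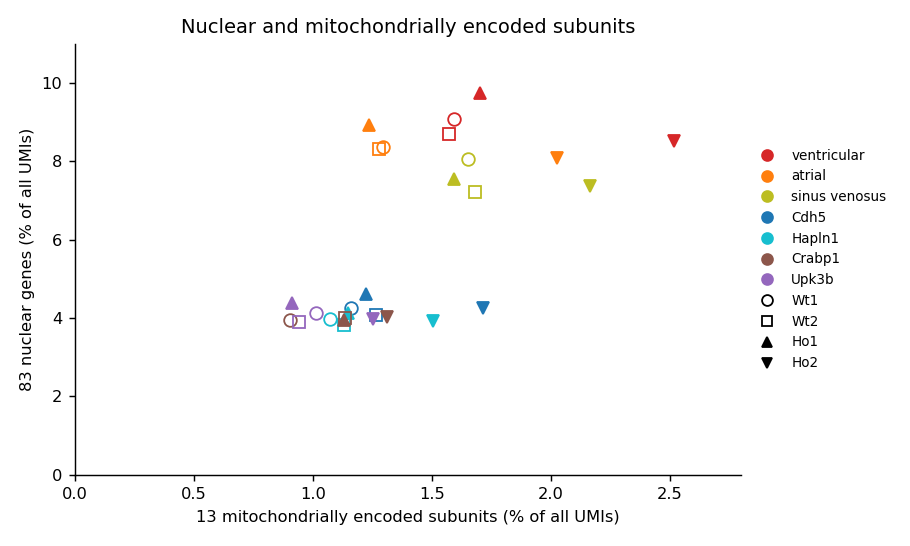
Share of UMIs held by the 83 nuclear genes (y axis, %) against that of the 13 mitochondrially encoded subunits (x axis, %), with 1 point for each gate and library, coloured by gate, open for Wt and filled for Ho. In ventricular cells Ho2 lies farthest right at 2.52% and lowest at 8.53%, and Ho1 highest at 9.74%.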

How the data were processed

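Gene by cell counts of UMIs were deposited per library by the authors, who aligned reads to mm10 (GRCm38) with Cell Ranger 6.1.1 and, per the labels, used Seurat 4.1.0. The 4 matrices held 10320, 8212, 7999 and 7058 barcodes and 109893733, 117034633, 127018819 and 107377100 UMIs (Wt1, Wt2, Ho1, Ho2). Cells with 500 to 50000 UMIs, 500 to 6000 genes and at most 20% mitochondrial UMIs were kept, and the highest Scrublet scores were removed as doublets, 0.8% per 1000 cells. Gates needed at least 2 marker UMIs and, per 10000 UMIs, 10 for Tnnt2, 20 for Myl2, 4 for Hapln1 and Crabp1, and 2 for the other markers, limits set after marker distributions were seen. Cells that met several gates were left out. Counts were summed per gate and library and tested with edgeR 4.0.16 (quasi-likelihood, TMM, filterByExpr), because cells are not replicates, whereas the study tested cells with Seurat. DESeq2 1.42.0 was an alternative. Levels are UMIs per 1000000 of a gate's UMIs.

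Members, lists and tests were chosen with earlier results of these data known. Genes were named by rule: isoform families, the 3 most abundant per complex, the X-linked members, and for each comparison up to 5 called members per direction with the largest change, or the 3 smallest p values where none was called. 1 named gene is not reported here. Ndufa7, Uqcrc1 and Ndufa11, and the members called only under an alternative, were chosen after their values were seen. Positions came from GENCODE M21 on GRCm38, matched by gene ID for 99.6% of genes and all 83 members. The tests were tried on simulated data. Erythroid genes, a check of blood RNA, held 0.00050%, 0.00047%, 0.0300% and 0.00068% of ventricular UMIs in Wt1, Wt2, Ho1 and Ho2, highest in Ho1.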

Additional observations from a re-analysis of the deposited data

Results flagged for a closer look

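Ndufb1-ps, which the rule leaves out by its symbol, was flagged because it carries a signal outside the genes compared. It stood at 624.8 UMIs per 1000000 in ventricular cells (692, 507, 725 and 575 in Wt1, Wt2, Ho1 and Ho2) and at 414 ± 63.9 in Cdh5 cells (SD, n = 4). It was higher in ventricular cells than in each of the other 6 gates, with log2 fold changes from 0.33 ± 0.05 against atrial cells to 1.397 ± 0.055 against Crabp1 cells (edgeR adjusted p = 1.37e-05 and 3.44e-18). No group holds 4 libraries, so no library could be flagged by its distance from the rest of its group.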

How the results depend on the processing

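Of the alternative values of the comparisons, 380 stayed within 1.5 times the count or within 1 SD, and 21 moved. For 125 pairs of a named gene and a comparison, 2195 of 2208 alternative values kept their direction. Ndufa1 and Ndufa7 over sinus venosus cells were not among these pairs and are given below. In the Ho and Wt comparisons, no filter on low counts called 2 members in Cdh5 cells (Cox6a2, Cox7a1), 2 in Hapln1 cells (Atp5mpl, Cox6a2) and 1 for an effect differing between gates, and keeping cells of several gates called 1 in atrial cells (Cox8b). Leaving out 1 library, so that the lone library of its genotype is assumed to vary like the other genotype, gave 0 to 2 members in ventricular cells, 0 to 2 in atrial cells, 0 to 1 in Hapln1 cells and 0 in the other gates. Against atrial cells the 39 members became 10 with thinned counts and 25 to 38 with 1 library left out. Under the alternative that raised the count most they became 51. Where no share of all genes called is given for an alternative, here or below, its count is not a result about the members.

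The replicate number as a block called 1 member (Atp5mpl) in Upk3b cells and 0 in the other gates. Samples with the same number did not deviate together (r from -0.218 in Crabp1 to 0.077 in atrial cells), so they share only a number. Since r was under -0.1 in Cdh5 and Crabp1 cells, the crossed pairing was added after seeing the data, and it called 0 members in each gate.

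For the summed level, Ho over Wt changed sign in 5 of 7 gates with 1 library left out. It ran from -0.045 to 0.099 in atrial and from -0.110 to 0.048 in sinus venosus cells as 1 library was left out, and was 0.041 in Crabp1 cells with gate limits doubled. Ventricular over atrial cells was 0.064 with cells of several gates kept, and over sinus venosus cells 0.14 with those kept and 0.34 with limits halved. With limits doubled it was 1.13 over Cdh5, 1.23 over Hapln1 and 1.17 over Upk3b cells, and with doublets kept 1.10 over Upk3b cells. The cause was not tested.

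Ndufa1 and Ndufa7 over sinus venosus cells changed sign with plain totals (-0.24 and -0.25), and so did the scarce Ndufa4l2 and Cox6b2 in places. Ndufa4l2 ran from -0.45 to 0.0088 over Cdh5 cells and from -0.46 to 0.79 over Crabp1 cells as 1 library was left out, and over Crabp1 cells it was 0.13 with DESeq2, 0.058 in a fit of the 2 gates alone and 0.33 with limits halved. Cox6b2 over sinus venosus cells ran from -0.095 to 0.15 as 1 library was left out, and was -0.0039 with RLE scaling, -0.27 with plain totals, -0.012 without mitochondrially encoded genes, -0.087 in a fit of the 2 gates alone and -0.091 with limits halved. Over Upk3b cells it was -0.089 with plain totals. With 2 libraries a genotype, small differences could not be detected, and Ho1 and Ho2 differ in sex.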
